A study of Mus musculus with 25 samples.

Results

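GATA1 is bound in erythroid cells both together with TAL1 and apart from it, and the locations described here are those of GATA1 at which TAL1 was not called at all. A GATA1 location was included when no TAL1 location of any kind (final, MultiGPS or peak pair) lay under 500 bp away and when it was over 1 kb from every transcription start site of a protein-coding gene. This held for 2791 of the 10290 final GATA1 locations (27.1%), or 30.3% of the 9222 that were over 1 kb from a start site, which are called distal below. For comparison, 3442 distal locations were cooccupied, with a final TAL1 location under 40 bp away, and the remaining 2989 distal locations, called TAL1 nearby below, had a TAL1 call of some kind under 500 bp away but no final one under 40 bp. Of these 2989, 1605 had a final TAL1 location under 500 bp away and 1384 had only a MultiGPS or peak-pair call. At 1596 of them (53.4%) a call of those other kinds lay under 40 bp away, so TAL1 was not called at a distance from GATA1 throughout this class. The locations were thus chosen by their distance to TAL1 calls, so that this distance is a description and was not tested.

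GATA1 and TAL1 were mapped by ChIP-exo, which is chromatin immunoprecipitation followed by digestion with an exonuclease that stops where a protein is cross-linked to DNA. The cells were the mouse lines G1E, a Gata1- erythroid progenitor of strain 129, and G1E-ER4, the same Gata1- background in which a fusion of GATA1 with the estrogen binding domain was reintroduced, so that estradiol starts maturation. For GATA1 (antibody sc265) the G1E-ER4 line gave 3 libraries before estradiol (0 h), 3 after 3 h and 3 after 24 h, and the G1E line gave 1. For TAL1 (antibody sc12984) there were 15 libraries, of which 4 came from the G1E line and the others from G1E-ER4, with 5 before estradiol, 3 after 3 h and 3 after 24 h. The lists analysed here pool the libraries and times of each factor, so that a location cannot be assigned to a time, and they hold no tag count. The GATA1 in these lists is thus the fusion protein of 1 cell line, since the study describes the GATA1 calls as made at the 3 times in G1E-ER4 cells, although the labels tie the same lists to the GATA1 library of G1E cells as well.

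GATA1 is a zinc finger protein that binds WGATAA (W is A or T) and turns on globin, heme and red cell membrane genes while it turns off progenitor genes. TAL1 is a basic helix-loop-helix protein that pairs with E proteins at E-boxes and is joined to GATA1 through LMO2 and LDB1, and beside a GATA site a bare TG can take the place of a whole E-box. The carboxyl zinc finger of GATA1 reads GATA, and its amino zinc finger is known to take part in binding at double sites, where a second GAT lies next to the first on either strand. GATA1 acts at different genes with different partners, and binding without TAL1 is one of the states described for it.

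Sequences with a second GATA core, a difference in the letters next to the site, are shown first, as 81-bp windows of the mm9 genome centered on the location and written on the strand of the site, with the 6-bp GATA site in capitals. Of the locations without TAL1, the first 7 also had ATC or GAT directly before the site, which is in capitals as well. ATC is GAT read on the other strand, so each of these holds a second core in inverted (ATC) or direct (GAT) order, 1 base from the GAT of the site. The location near Ikzf2, which encodes the Ikaros-family factor Helios, was at chr1:69547119-69547199 (minus strand), and that in an intron of Nck2, an SH2 and SH3 adaptor, at chr1:43559787-43559867 (plus strand). The location near Ppp1r12c, a regulatory subunit of protein phosphatase 1, was at chr7:4454447-4454527 (plus strand), and that near Trim56, a ubiquitin ligase, at chr5:137574463-137574543 (minus strand). Of those with GAT, the location near Arhgap25, a GTPase-activating protein, was at chr6:87472458-87472538 (plus strand), that in Mbnl1, a regulator of splicing, at chr3:60326366-60326446 (minus strand) and that near Gm853 at chr4:129882175-129882255 (plus strand). Ikzf2, Nck2 and Gm853 were closest to the most locations, and the other 4 were picked after their values were seen, as those with the most GATA1 peak pairs among exact WGATAA sites with ATC or GAT.
Ikzf2, ATC: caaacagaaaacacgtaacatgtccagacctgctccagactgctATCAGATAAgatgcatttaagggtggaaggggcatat
Nck2, ATC: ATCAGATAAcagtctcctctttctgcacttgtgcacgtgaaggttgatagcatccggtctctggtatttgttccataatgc
Ppp1r12c, ATC: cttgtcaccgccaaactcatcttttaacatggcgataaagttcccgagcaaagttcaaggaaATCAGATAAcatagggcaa
Trim56, ATC: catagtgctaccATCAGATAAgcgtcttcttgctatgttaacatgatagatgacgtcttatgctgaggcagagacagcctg
Arhgap25, GAT: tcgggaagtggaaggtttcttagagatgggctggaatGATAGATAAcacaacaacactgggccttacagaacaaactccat
Mbnl1, GAT: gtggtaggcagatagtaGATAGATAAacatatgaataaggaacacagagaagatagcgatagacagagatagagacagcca
Gm853, GAT: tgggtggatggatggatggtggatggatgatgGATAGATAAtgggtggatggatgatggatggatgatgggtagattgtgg

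Most locations without TAL1 held a site with neither ATC nor GAT directly before it, and some held no site. Neither word stood before the site in an intron of Foxo3, a forkhead transcription factor of erythroid maturation, at chr10:41990276-41990356 (plus strand). The same held in Epb4.1, the gene of the membrane skeleton protein 4.1, at chr4:131594375-131594455 (plus strand). Both windows also hold GATA outside the marked site, on the same or the other strand, which was not counted as a second core. The location in Steap3, an endosomal ferrireductase, at chr1:122130251-122130331 had no site and is shown on the plus strand. For contrast, a pair of cooccupied locations is given with the TG upstream of the site in capitals, at chr10:41980481-41980561 in Foxo3 (minus strand) and at chr15:100250487-100250567 in Slc11a2, an iron transporter (plus strand). The TG lay 8 bp before the site in Foxo3 and 7 bp before it in Slc11a2.
Foxo3, no TAL1: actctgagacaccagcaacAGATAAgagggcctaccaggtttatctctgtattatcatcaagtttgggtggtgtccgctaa
Epb4.1, no TAL1: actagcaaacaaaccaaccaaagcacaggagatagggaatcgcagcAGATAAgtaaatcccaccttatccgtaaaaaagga
Steap3, no TAL1, no site: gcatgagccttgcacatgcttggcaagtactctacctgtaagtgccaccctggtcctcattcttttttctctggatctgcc
Foxo3, cooccupied: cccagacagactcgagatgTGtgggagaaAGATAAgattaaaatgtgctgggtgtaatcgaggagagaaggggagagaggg
Slc11a2, cooccupied: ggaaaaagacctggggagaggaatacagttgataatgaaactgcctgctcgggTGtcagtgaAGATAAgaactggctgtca

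The locations without TAL1 were spread over all 20 chromosomes in the lists, where they made up 25.3 to 34.3% of the distal locations (median, 29.7%). Their closest TAL1 call lay at a median of 7175 bp (quartiles, 2381 and 18373.5 bp), and the most isolated was 568874 bp from any TAL1 call. The distance was 500 bp to 1 kb for 266 locations (9.53%), 1 to 10 kb for 1387 (49.7%), 10 to 50 kb for 961 (34.4%) and over 50 kb for 177 (6.34%). At the limit itself, the closest included location had its TAL1 call at 501 bp and the closest one left out at 499 bp. Within 50 bp of the limit, 24 distal locations had their call just below it and 32 just above it. The closest start site was 1004 bp from an included location, and another 517 locations without TAL1 were left out because they were within 1 kb of a start site. With the final TAL1 list alone, 4175 distal locations would have been without TAL1.

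A GATA site was present at most locations without TAL1, at a share within a few percentage points of the other classes. Sites were matches to an 8-bp weight matrix of the WGATAA form (matrix threshold 0.001) within 40 bp of the location, and forms such as AGATAG or AGATTA can pass this threshold beside WGATAA. A site was present at 2318 of the 2791 locations (83.1%; 95% exact binomial interval, 81.6 to 84.4%), while 16.3% of their windows had one after a shift by 1 kb. At cooccupied locations the share was 83.8%, and the odds ratio of 0.944 had an interval of 0.826 to 1.08 (Fisher's exact test, two-sided, p = 0.531 after Benjamini-Hochberg adjustment over 20 comparisons). Where TAL1 was nearby it was 80.0% (odds ratio 1.23, interval 1.07 to 1.40, adjusted exact p = 0.00573). Both comparisons depended on the definition of the site. Counting only the exact WGATAA string gave 65.6% without TAL1 and 71.5% at cooccupied locations, and a site within 20 bp was found at 60.5 and 56.1%. The difference from TAL1 nearby did not pass the threshold with the exact string (odds ratio 1.07), a matrix threshold of 0.0001 (1.08) or no limit to start sites (1.10). These tests and all that follow count locations as independent units drawn from the same pooled libraries, and none of them covers the variation among libraries.

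The letters of the best site differed modestly. AGATAA was the best site at 1229 locations without TAL1 (53.0%), TGATAA at 540 (23.3%), AGATAG at 293 (12.6%), AGATTA at 112 (4.83%) and AGATAT at 77 (3.32%). At cooccupied sites AGATAA made up 58.4% and AGATAG 8.32%. Among exact WGATAA sites, A was the first base at 69.5% without TAL1 and at 70.6% of cooccupied sites (odds ratio 0.948, interval 0.829 to 1.08, adjusted exact p = 0.531). A following G was present at 51.3% and 55.2% (odds ratio 0.854, adjusted exact p = 0.0236), but the difference did not pass the threshold within classes of GC content. The share with 2 or more separate sites within 100 bp was 65.1% in both sets (odds ratio 1.00, interval 0.902 to 1.11). This depended on the setting, since the odds ratio was lower within classes of GC content (0.783) and with the exact string (0.809) and higher within classes of pair number (1.28), each past the threshold.

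TG at 7 or 8 bp upstream of the site, the spacing of the known compound motif of GATA1 and TAL1, was not above its background without TAL1. It was present at 346 of 2318 sites (14.9%; interval, 13.5 to 16.4%), while sites found in the moved windows of the same locations had it at 71 of 455 (15.6%). Of cooccupied sites, 1254 of 2886 had it (43.5%). The odds of TG were lower without TAL1 than at cooccupied sites (odds ratio 0.228, interval 0.199 to 0.262, adjusted exact p = 2.33e-113 by Fisher's exact test), and the share was lower on 20 of 20 chromosomes. Compared with sites where TAL1 was nearby, 22.9% of which had TG, they were also lower (odds ratio 0.591, adjusted exact p = 8.93e-12, lower on 18 of 20 chromosomes).

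Distance by distance, TG showed no maximum at locations without TAL1. It occurred at 7.68% of their sites at 7 bp and 7.25% at 8 bp, within the range of 6.38 to 8.76% found at the 25 distances from 0 to 30 bp outside the interval of 5 to 10 bp. Cooccupied sites had it at 17.5 and 26.0%, above their highest value of 10.2% at those 25 distances. Sites with TAL1 nearby were intermediate, at 11.3 and 11.6%.

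**Figure D1:**
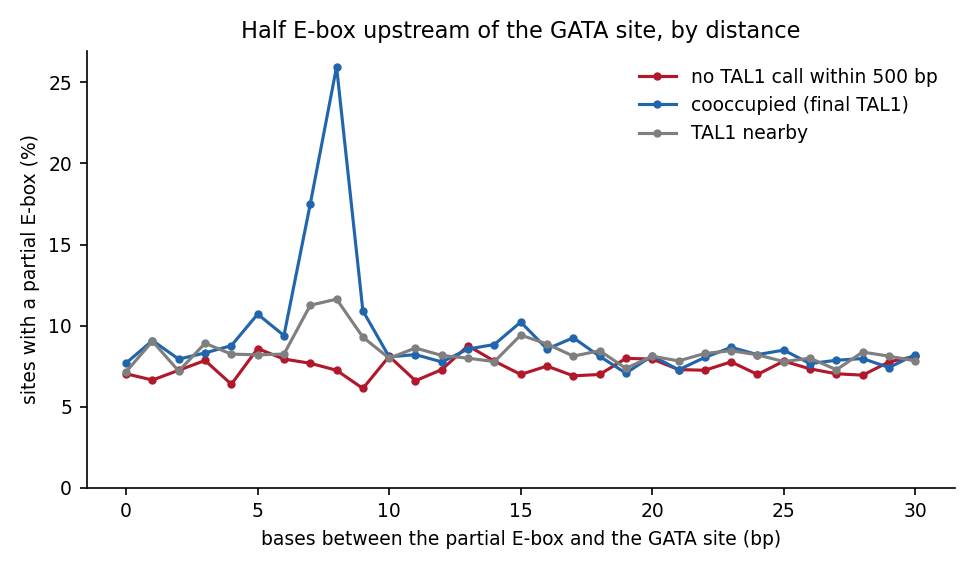
Share of GATA sites (y axis, percent) with TG, a partial E-box, against the number of bases between it and the site (x axis, bp), for locations without TAL1 (red), cooccupied (blue) and with TAL1 nearby (gray). The red line stays between 6.13 and 8.76% at all distances, while the blue line rises to 26.0% at 8 bp.

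A second core stood directly before the site more often without TAL1 than in either other class. Of the 64 possible words of 3 bases directly before the site, 3 were more frequent without TAL1 than at cooccupied sites (4.69% of the words, Fisher's exact test per word, Benjamini-Hochberg adjustment) and none was less frequent at an adjusted p under 0.05. ATC was found at 114 of 2318 sites without TAL1 (4.92%) and at 33 of 2886 cooccupied sites (1.14%; odds ratio 4.47, interval 3.02 to 6.61, adjusted exact p = 1.26e-14). GAT was found at 82 (3.54%) and 26 (0.901%; odds ratio 4.03, interval 2.59 to 6.29, adjusted exact p = 8.39e-10). CCA was found at 1.73 and 0.762% (odds ratio 2.29, adjusted exact p = 0.0392). ATC and GAT were the most frequent of all 64 words at sites without TAL1, and the odds ratios of the other 62 lay between 0.427 and 2.91.

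Compared with sites where TAL1 was nearby, 2 of the 64 words were more frequent (3.12%) and none less, and they were the same ATC and GAT. There ATC was at 2.34% (odds ratio 2.16, adjusted exact p = 7.15e-05) and GAT at 1.09% (odds ratio 3.33, adjusted exact p = 8.71e-07). The base before ATC was C at 52 of the 114 sites, and the base before GAT was A at 46 of the 82, which makes AGAT followed by a whole site. Within classes of GC content the odds ratios against cooccupied sites were 4.44 for ATC and 2.97 for GAT, and with only the exact WGATAA string counted as a site they were 6.67 and 3.49.

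Together, ATC or GAT stood before 196 of 2318 sites without TAL1 (8.46%; interval, 7.35 to 9.66%), 59 of 2886 cooccupied sites (2.04%) and 82 of 2390 sites with TAL1 nearby (3.43%). The share without TAL1 was the higher one on 20 of 20 chromosomes against either class. Sites in the moved windows of the locations without TAL1 had either word at 19 of 455 (4.18%; odds ratio of the locations to their moved windows 2.12, interval 1.31 to 3.43, adjusted exact p = 0.0013). The moved windows of the other classes had either word at 8 of 530 sites near cooccupied locations (1.51%; interval, 0.654 to 2.95%) and at 12 of 452 near those with TAL1 nearby (2.65%; interval, 1.38 to 4.59%), so that the order of the classes was the same 1 kb away. Taken singly, ATC was at 1.76% and GAT at 2.42% of sites in the moved windows of the locations without TAL1, beside 4.92 and 3.54% at the locations. The test against the moved windows pooled both words, so an excess of GAT alone over them was not tested. The search for words was made after the 6-mers described below had been seen. The pooled share was therefore also counted in sets of GATA1 locations that the search had not used. Within 1 kb of a start site, 29 of 365 sites without TAL1 had either word (7.95%) and 5 of 206 cooccupied sites (2.43%; odds ratio 3.47, interval 1.32 to 9.11, adjusted exact p = 0.0089). Distal GATA1 locations called by MultiGPS but absent from the final list had either word at 146 of 953 sites without a TAL1 call (15.3%) and at 7 of 295 sites with a TAL1 call under 40 bp away (2.37%; odds ratio 7.44, interval 3.45 to 16.1, adjusted exact p = 3.61e-11). In the same set TG was at 13.4 and 42.0% (odds ratio 0.214, adjusted exact p = 1.64e-23).

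The second core and TG could occur at the same site. Of the 2318 sites without TAL1, 346 had TG, 196 had ATC or GAT, and 27 had both. No difference in GATA1 peak pairs was detected between sites with a second core and those without, with 2 or more pairs at 38.8% of 196 and 41.9% of 2122 (odds ratio 0.877, interval 0.649 to 1.18, p = 0.406 by Fisher's exact test).

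**Figure D2:**
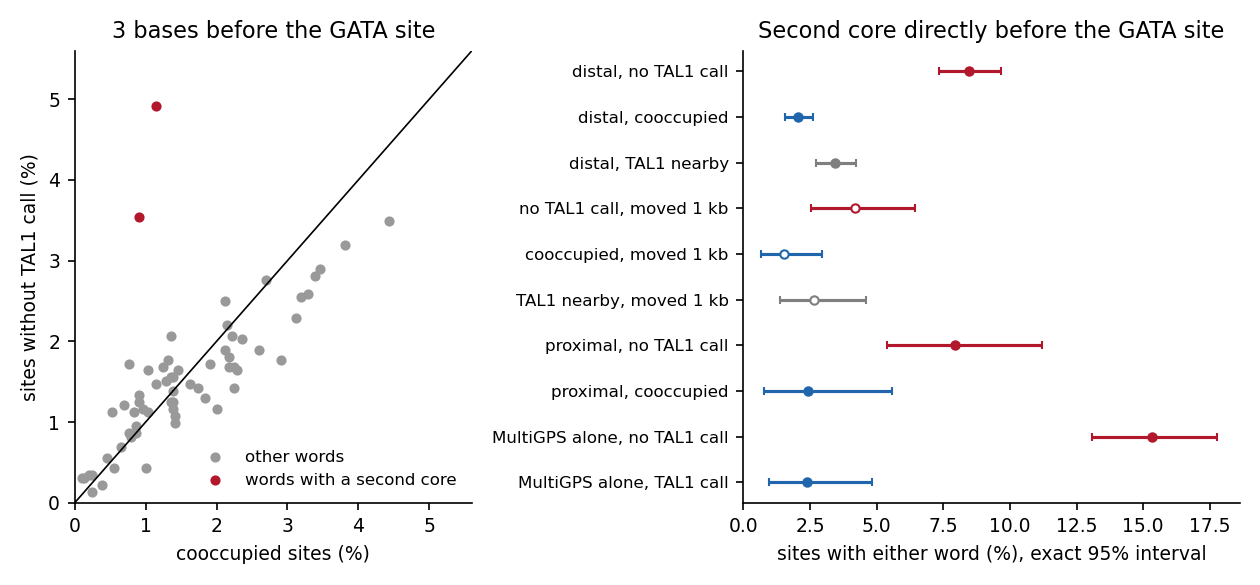
Left, percent of sites without TAL1 (y axis) against percent of cooccupied sites (x axis) that have each of the 64 words of 3 bases directly before the site, with ATC (4.92%) and GAT (3.54%) in red far above the line of equality. Right, percent of sites with either word and its exact 95% interval in each set of GATA1 locations (open circles, windows moved by 1 kb), highest at 15.3% for MultiGPS locations without a TAL1 call and near 2% in all cooccupied sets.

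The 6-mers seen before the search for words were counted without reference to the position of the site, in windows that can include it. They overlap the site and the words before it, and are not a separate observation. Among 2080 6-mers (each joined with its reverse complement, within 50 bp), 165 were more frequent without TAL1 than at cooccupied locations (7.93%) and 197 less frequent (9.47%). Of the former 91.5% had at most 2 G or C, and of the latter 74.1% had 4 to 6. Within 5 classes of GC content 54 were higher (2.6%), 50 of them among the 165, and 76 were lower (3.65%), 68 of them among the 197. Of the 54, 44 contained GAT (81.5%), compared to 11.2% of all 6-mers and to 5 of the 76. Of the 5 with the lowest p, CATCTA was at 9.17% of locations without TAL1, 3.60% of cooccupied locations and 5.27% of the moved windows (odds ratio 2.70 against cooccupied, adjusted exact p = 6.63e-17). ATCTGA, which joins an inverted GAT to the first bases of TGATAA, was at 18% without TAL1, 10.8% of cooccupied locations and 5.88% of the moved windows. ATCAGA, which does so for AGATAA, was at 18.1, 11.6 and 6.16%. The others were ATAGAT, at 12.7% without TAL1 and 6.74% of cooccupied locations, and ATCTAA, at 11.9 and 6.71%. Of the 5 less frequent 6-mers with the lowest p, the E-box CAGCTG was at 5.05% of locations without TAL1 and at 13.4% of cooccupied ones (adjusted exact p = 1.07e-26). AGCTGC was at 7.06 and 14.1%, and ACAGCT at 7.17 and 13.6%. The E-box CAGATG was at 9.32 and 16.1%, and GCTGCC at 6.13 and 11.6%.

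Base by base around the oriented site, 34 of 180 combinations of position and base were more frequent without TAL1 than at cooccupied sites (18.9%) and 33 less frequent (18.3%), out of 45 positions. Of the 34, 25 were an A. The lowest p were at positions -11 to -8, with -1 as the base directly before the site, of which -10 to -8 hold the TG of the compound motif. At position -9, G was present at 22.3% of sites without TAL1, 40.3% of cooccupied sites and 29.0% of sites with TAL1 nearby (odds ratio against cooccupied 0.426, adjusted exact p = 1.06e-41). A was present there at 28.7, 14.9 and 24.4%. In the site itself, the last base was A at 82.1% and G at 14.4% without TAL1 and A at 87.4% and G at 9.77% of cooccupied sites (adjusted exact p = 1.32e-06 and 6.08e-06).

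Around the locations without TAL1, E-boxes were less frequent than around cooccupied ones and not detectably more frequent than in the moved windows. A panel of 12 motifs was counted within 50 bp on both strands. Against cooccupied locations 4 of the 12 were less frequent (33.3%) and 0 more frequent (0%), all at an adjusted p under 0.05 by Fisher's exact test over 24 comparisons. The E-box CANNTG was at 38.1% without TAL1, 52.8% of cooccupied locations (odds ratio 0.552, adjusted exact p = 1.94e-29) and 39.7% of the moved windows (adjusted exact p = 0.303 against these). Its forms CAGCTG and CAGATG, which overlap CANNTG and are among the 6-mers above, were the second and the third. The RUNX motif TGTGGT was at 11.4 and 14.8% (odds ratio 0.745, adjusted exact p = 0.000505). Against locations with TAL1 nearby, 5 of 12 motifs were less frequent (41.7%) and 0 more frequent. They were the same 3 E-box forms, the KLF motif CCNCNCCC at 8.85 and 11.1% (adjusted exact p = 0.0115) and the CTCF core CCCTC at 19.8 and 22.4% (adjusted exact p = 0.0382). Both of these were lost within GC classes (odds ratios 0.938 and 0.978), KLF was also lost with no limit to start sites (0.869), and the CTCF core was lost in 8 of 10 alternatives in all. Against cooccupied locations KLF turned to an excess within GC classes (odds ratio 1.29), although the plain shares were 8.85 and 9.70%.

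The ETS and RUNX motifs were more frequent without TAL1 than in the moved windows, by a test that did not use the pairing of each location with its own window. The ETS motif AGGAAG was at 16.0% without TAL1 and 15.7% of cooccupied locations (odds ratio 1.02, interval 0.890 to 1.17), above the 12.3% of the moved windows (odds ratio 1.36, adjusted exact p = 0.000809). The RUNX motif, too, was above its 8.35% in the moved windows (odds ratio 1.42, adjusted exact p = 0.000809). The remaining 5 motifs did not pass the threshold against either class or the moved windows. The NF-E2 and AP-1 motif TGANTCA was at 4.48% without TAL1 and 3.63% of cooccupied locations. For the STAT motif TTCNNNGAA the shares were 3.12 and 3.02%, for the CCAAT box 11.5 and 9.94%, and for the C/EBP motif TTGCNNAA they were 4.23 and 4.01%. The CREB motif TGACGTCA was seen at 4 locations without TAL1 and at 1 cooccupied location.

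The surroundings were poorer in G and C. Windows of 100 bp on either side had a median GC content of 44.3% without TAL1, 47.3% at cooccupied locations and 45.8% with TAL1 nearby. Over 50% GC was found at 442 locations without TAL1 (15.8%), 31.6% of cooccupied locations (odds ratio 0.407, adjusted exact p = 1.11e-47, lower on 20 of 20 chromosomes) and 22.9% of those with TAL1 nearby (odds ratio 0.635, adjusted exact p = 4.26e-11, lower on 17 of 20). A run of tandem repeat was found at 8 locations without TAL1, 3 cooccupied and 3 with TAL1 nearby, too few to differ detectably (adjusted exact p = 0.113 and 0.192).

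Fewer GATA1 peak pairs were called at locations without TAL1. A peak pair is a peak on each strand that together flank 1 cross-linking point, and a final location has at least 1 within 100 bp by construction. Without TAL1, 1665 of the 2791 locations had 1 pair (59.7%), 779 had 2, 254 had 3, 68 had 4, 20 had 5 and 5 had 6, and none had 7 or 8. The mean was 1.57 pairs, compared to 2.66 at cooccupied locations and 2.10 with TAL1 nearby. The share with 2 or more was 40.3%, against 76.4% (odds ratio 0.209, interval 0.188 to 0.234, adjusted exact p = 5.19e-185, lower on 20 of 20 chromosomes) and 61.1% (odds ratio 0.430, adjusted exact p = 9.97e-56, lower on 19 of 20). The 5 locations with 6 pairs, named here after their values were seen, were near Bard1, Ndufb6, Ppp1r12c, Mns1 and Nt5c2. That near Ppp1r12c, shown above with ATC before its site, was 1633 bp from the closest TAL1 call and 1205 bp from a start site.

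The number of pairs, for want of tag counts, is the one measure of GATA1 signal in the lists, and it moved with the class. A location with little GATA1 signal, at which TAL1 was bound but not called, cannot be told apart in the lists from one that TAL1 did not occupy. The share of TG was low at each number of pairs. Locations without TAL1 had TG at 14.4, 17.0 and 12.7% of sites with 1, 2 and 3 or more pairs, and cooccupied locations at 52.3, 46.3 and 37.7%. The presence of a site increased with pairs without TAL1, from 81.2% to 84.5% and 88.8%. In the other classes, too, it was lowest with 1 pair. The shares were 79.6, 85.5 and 85.0% at cooccupied locations and 77.4, 82.1 and 81.1% with TAL1 nearby.

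Peak pairs lay around the site in a similar arrangement with and without TAL1. Smoothed over 5 bp, they had their maximum 8 bp upstream of the middle of the site without TAL1, and 9 bp upstream in both other classes. Of the pairs within 20 bp, 63.5% were upstream without TAL1 (1120 pairs upstream and 644 downstream; interval, 61.2 to 65.7%), 62.7% at cooccupied sites (60.9 to 64.5%) and 63.5% with TAL1 nearby (61.4 to 65.6%). The pairs close to the site numbered 48.3 upstream and 27.8 downstream per 100 sites without TAL1, and 61.5 and 36.6 per 100 cooccupied sites.

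**Figure D3:**
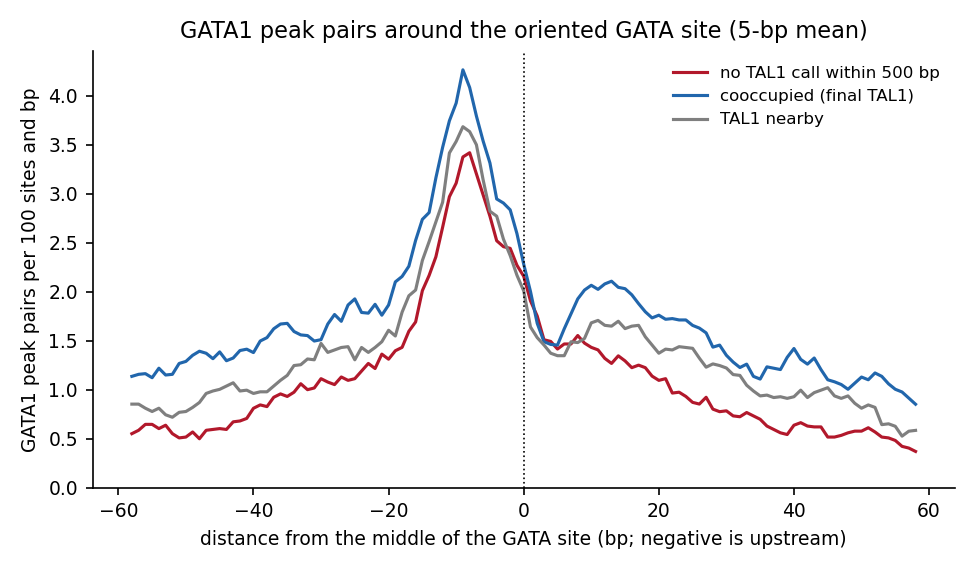
GATA1 peak pairs per 100 sites and bp (y axis, mean over 5 bp) against the distance from the middle of the GATA site (x axis, bp, negative values upstream) for locations without TAL1 (red), cooccupied (blue) and with TAL1 nearby (gray). All 3 curves have their maximum upstream of the site, and the red one is the lowest there, at 3.42 pairs per 100 sites and bp.

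A site was missing at 473 locations without TAL1 (16.9%). Of these, 315 (66.6%) had GATA within 40 bp, compared to 34.9% of their moved windows, and 298 (63.0%) had a site when the search was widened to 93 bp. The wider share has no moved windows beside it, so its background is not known. Of the 2080 6-mers, 44 were more frequent there than in the moved windows (2.12%), led by AGATAC at 16.7 and 2.96% (odds ratio 6.57, adjusted exact p = 6.47e-10) and CTTATC at 14.2 and 2.96%. ATCAGA, also among the 6-mers above, was at 20.3 and 6.77% (adjusted exact p = 5.49e-07). No site was found at 18.8% of locations with 1 pair, 15.5% with 2 and 11.2% with 3 or more.

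Locations without TAL1 were mostly solitary. Another final GATA1 location lay under 500 bp away for 160 of them (5.73%), beside 15.5% of cooccupied locations and 19.5% of those with TAL1 nearby. The rule sets part of this, since a location under 500 bp from a GATA1 location that carries TAL1 can have the TAL1 call of that neighbor within its own limit, so these shares are a description with no test. Of the 160, 145 formed 66 clusters without any other location, 58 of them pairs and 7 of them triplets. The remaining cluster had 8 locations, spread over 2466 bp at chr4:129880731-129883197, 16448 bp from the start site of Gm853. Its sequence repeats GATG, as can be seen in the Gm853 window above, and 3 of the 8 locations had a site. Their pair numbers in order along the chromosome were 1, 2, 1, 3, 1, 1, 1 and 1. A triplet of locations lay next to it, and Gm853 was closest to 12 locations without TAL1 and to no other distal location. Leaving out tandem repeats, or all but 1 location of each cluster, kept ATC and GAT above the threshold (odds ratios 4.49 and 3.79, and 4.83 and 4.07).

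Most locations without TAL1 were in genes. There were 1634 in introns (58.5%), 78 in exons (2.79%) and 1079 between genes (38.7%), and the share in introns was 54.9% for cooccupied locations (odds ratio 1.16, interval 1.05 to 1.28, adjusted exact p = 0.00801, higher on 15 of 20 chromosomes) and 57.5% with TAL1 nearby (adjusted exact p = 0.531). The excess over cooccupied locations did not pass the threshold over 2 kb from start sites (odds ratio 1.12) or with no limit to them (1.08). The median distance to a start site was 13732 bp, compared to 17983 bp and 17454 bp. Within 10 kb were 41.2% of locations without TAL1.

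**Figure D4:**
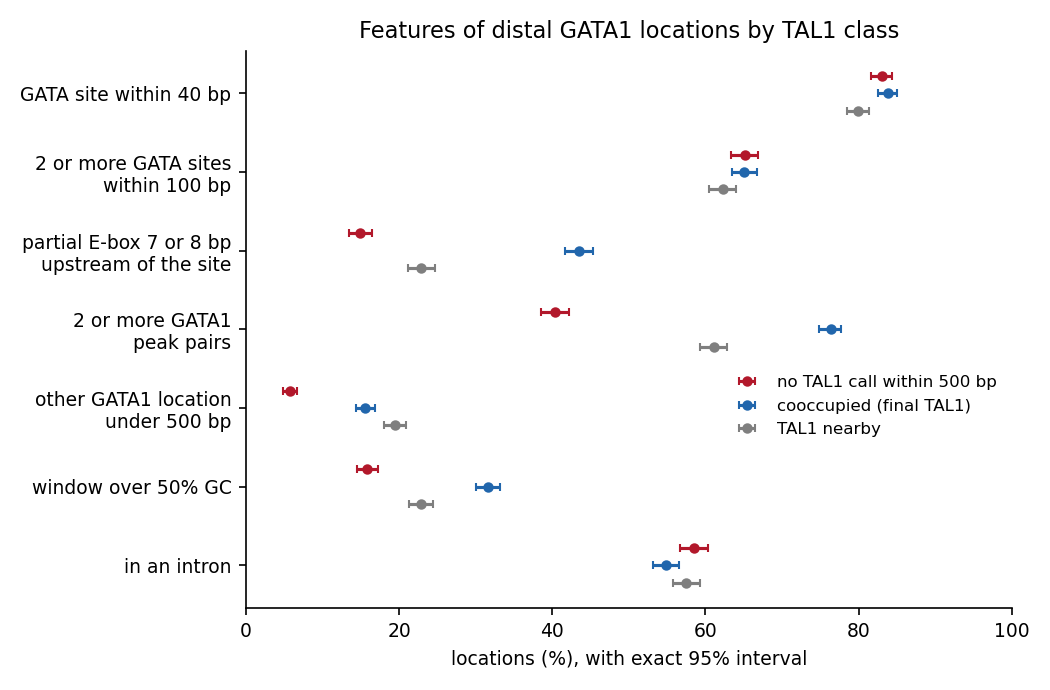
Percent of distal GATA1 locations (x axis, with exact 95% binomial interval) that have each feature named on the y axis, for locations without TAL1 (red), cooccupied (blue) and with TAL1 nearby (gray), the partial E-box being TG. The GATA site is at 83.1% without TAL1, close to the other classes, while TG (14.9%), 2 or more peak pairs (40.3%), another GATA1 location nearby (5.73%) and GC-rich windows (15.8%) are lowest there.

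The 2791 locations had 2010 different closest genes, and 1521 genes had 1 location. For 928 of the 2010 genes (46.2%) every distal GATA1 location closest to the gene was without TAL1, and for 122 of these there were at least 2. The rest of the 928 had a single distal location, so that for them the count adds nothing. In all, 4319 genes were closest to a distal location of any class, and 30.3% of distal locations were without TAL1. Behind Gm853, the genes closest to the most locations were Ikzf2, Nck2 and Zfp217, a zinc finger repressor, with 8 each. Eif5b, a translation initiation factor, Hmcn1, an extracellular matrix protein, Klf13, a Kruppel-like factor, Syne1, a protein of the nuclear envelope, and Ypel2 had 7 each. These counts are not scaled to the space around a gene, and several of these genes had locations of the other classes as well. Ikzf2 was also closest to 9 cooccupied locations and to 3 with TAL1 nearby, and Klf13 to 8 and 11, while Ypel2 had 0 and 1 and Syne1 1 and 2.

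The 8 locations near Ikzf2 had 3, 2, 1, 3, 1, 3, 3 and 1 peak pairs in order along the chromosome, and 7 of the 8 had a site. Of the 8 near Nck2, 6 had a site, and the 3 with ATC before it were all in introns. Of the 7 with Eif5b as the closest gene, all 7 had a site and all lay in introns, 683 to 3513 bp from the closest TAL1 call.

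At some genes only GATA1 locations without TAL1 lay in the body or within 10 kb. Besides Gm853, Arih1, a ubiquitin ligase, Cd47, the surface protein that keeps macrophages from engulfing a cell, Mtap4, which binds microtubules, Polg, the mitochondrial DNA polymerase, and Slc28a3, a nucleoside transporter, had 4 each. Beyond that distance, Cd47 was also closest to 4 cooccupied locations and to 2 with TAL1 nearby, and Slc28a3 to 1 and 3. Arih1, Mtap4 and Polg were closest to no distal location of the other classes. At Polg the 4 locations had 3, 1, 4 and 2 peak pairs and a site each, and the closest TAL1 call was 54598 to 61183 bp away. At Cd47 each of the 4 had 1 pair. At Mtap4 they had 2, 1, 1 and 1, and 1 had ATC before TGATAA.

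Lists of genes were counted without a test, since the locations were chosen with results of these data known. Of the 127 distal locations in or within 10 kb of 52 erythroid genes, 21 were without TAL1 (16.5%; interval, 10.5 to 24.2%), beside 2179 of 6975 (31.2%) for all protein-coding genes. None of 8 locations at the globin genes was without TAL1, which allows a share of up to 36.9%. The counts were 2 of 13 at the heme synthesis genes, both at Fech, the enzyme that inserts iron into heme, and 7 of 43 at genes of the red cell membrane and its skeleton. Of these 7, Epb4.1 had 3, and Gypc, which encodes glycophorin C, and Kel, the Kell blood group antigen, had 1 each. Among genes for iron handling it was 1 of 10, that at Steap3.

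The erythroid transcription factor genes had 11 of 53, with 3 at Foxo3 and 2 each at Klf13 and Bcl11a, a repressor of embryonic globin genes. Foxo3 also had 5 cooccupied locations and 1 with TAL1 nearby, and its 3 locations without TAL1 had 2, 2 and 1 peak pairs and lay 1788 to 2947 bp from a TAL1 call. Progenitor genes, which GATA1 is known to turn off, had 16 of 45 (35.6%; interval, 21.9 to 51.2%). Of these 16, 5 were at Ikzf2, 2 at Cdk6, the cyclin-dependent kinase, and 2 at Gata2, the factor that GATA1 replaces. Both locations at Gata2 had AGATAG as the site, had 2 and 1 peak pairs, and were 782 and 636 bp from a TAL1 call, with 3 cooccupied locations at the same gene.

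Genes of the cell cycle and survival had 6 of 27, with 3 at Bcl2l1, which encodes the survival protein Bcl-x, and 1 each at the inhibitor genes Cdkn1a and Cdkn1b. At Cdkn1a and Cdkn1b these were the only final GATA1 locations in or within 10 kb, with 2 and 4 peak pairs and the closest TAL1 call 20812 and 14607 bp away. Genes of other blood lineages had 6 of 29. There was 1 of 16 for megakaryocytes (at Fli1), 4 of 10 for mast cells and eosinophils, with 2 at Ms4a2, a chain of the IgE receptor, and 1 each at Cpa3 and Hdc, and 1 of 3 for myeloid and lymphoid cells (at Cebpe). Of the liver, neuron and muscle genes, 1 location lay at Syt1 and it was without TAL1.

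**Figure D5:**
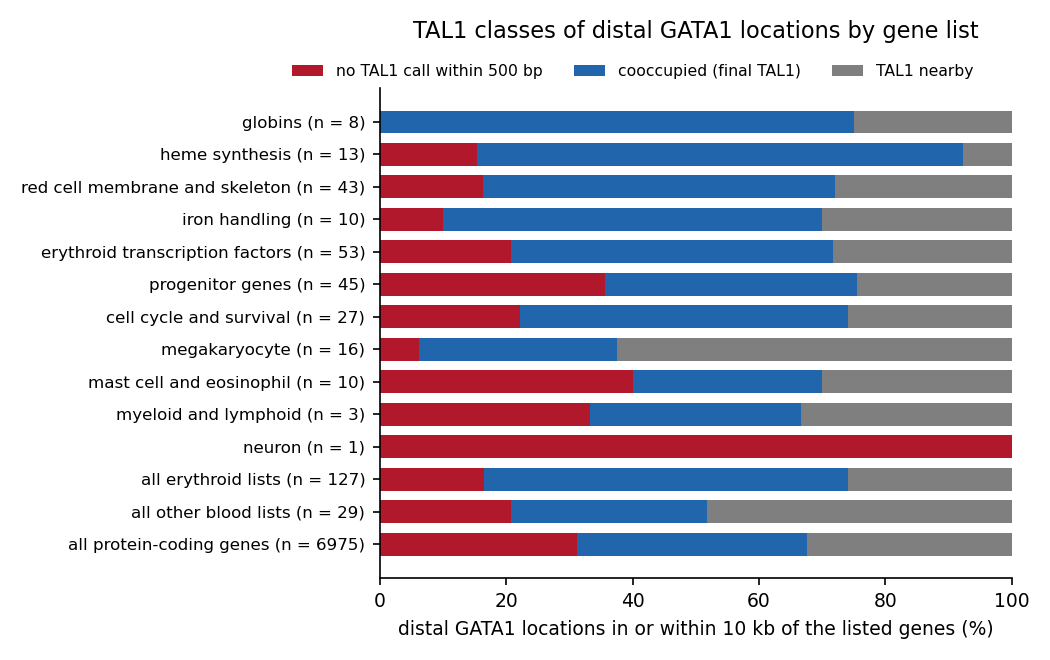
Percent of the distal GATA1 locations in or within 10 kb of the genes of each list (x axis; n, locations) that are without TAL1 (red), cooccupied (blue) and with TAL1 nearby (gray). Without TAL1 are 16.5% of the locations at all erythroid genes, 35.6% at progenitor genes and 31.2% at all protein-coding genes, and several lists have 16 locations or fewer.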

How the data were processed

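The authors aligned ChIP-exo reads to mm9 (Bowtie 1.00 or BWA 0.6.2 and 0.7.9a, after CASAVA 1.7 and bcl2fastq 2.15), paired peaks on merged replicates, called MultiGPS locations over times and replicates jointly, and deposited 1 list per factor and method. Each deposited entry is a single base position and has no other unit, score, tag count or replicate, so that depth is unknown here. A final location is a MultiGPS location with a peak pair nearby. Compared with the mm9 assembly, 0 positions lay past a chromosome end.

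Here, distances were taken between list positions and to start sites of the GENCODE annotation of mm9. The 8-bp weight matrix was learned by expectation maximization (30 iterations, pseudocount 1) from 500 random windows of 81 bp, and the site of highest score was used. Shares were compared by Fisher's exact test, two-sided, with Benjamini-Hochberg adjustment over each family (threshold 0.05), and stratified by the Mantel-Haenszel method over 5 classes of GC content or 3 of peak pair number. All tests against moved windows took locations and windows as independent sets, although each window belongs to 1 location. Odds ratios have 95% Wald intervals. Tandem repeats were runs of at least 30 bases with a unit of at most 6. Scripts were tested on simulated data. Of the 129 listed genes, 127 were in the annotation (not Tfr2 and Spi1).

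The locations, gene lists and measures were chosen with earlier results of these data known. Named were the genes closest to the most locations, with ties, those with the most where no other location was within 10 kb, up to 3 per list, and the 5 6-mers of lowest p in each direction. The scans of positions and upstream words, the sets in which the words were then counted, the 6-mers at locations without a site and the classes of pair number were added after seeing the data. The tools were samtools 1.23.1 and, under Python 3.11.15, pysam 0.24.0, scipy 1.17.1, numpy 2.4.6 and, for figures, matplotlib 3.10.9.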

Additional observations from a re-analysis of the deposited data

How the results depend on the processing

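The limits of these data are those of pooled lists. A location has no tag count, time or replicate, and absence of a TAL1 call is not absence of TAL1. No paired analysis was possible because the lists pool the libraries and no entry carries a replicate number, so no alternative without a replicate was run either.

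The odds ratios of TG, of 2 or more peak pairs, of GC-rich windows and of the E-boxes kept their direction and their side of the threshold in every alternative run, against both classes. Those of TG ranged from 0.199 to 0.265 against cooccupied sites and from 0.435 to 0.656 against those with TAL1 nearby. For ATC and GAT they ranged from 2.16 to 6.67 and from 2.97 to 4.07. The 2.16 is the ratio of ATC against sites with TAL1 nearby, and is not an alternative against cooccupied sites. Of 605 alternative values in all, 552 were counted as unchanged, among them those of clusters, whose direction the rule sets in part. A ratio that passed the threshold in neither setting was counted as unchanged even if its direction turned. An example is the share with a GATA site against cooccupied locations, which was 1.09 in pair classes. The odds ratio of clustered locations against cooccupied ones was 0.443, 0.330 and 0.297 with TAL1 excluded within 250, 500 and 1000 bp.

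The frequency of a GATA site against cooccupied locations (odds ratio 0.944) passed the threshold with the exact string (0.763), a matrix p of 0.0001 (0.808) and no limit to start sites (0.840), and turned to 1.20 within 20 bp. Against TAL1 nearby (1.23) it was lost in the same first 3 settings (1.07, 1.08 and 1.10). A following G (0.854) was lost over 2 kb from start sites (0.873), in GC classes (0.913) and in pair classes (0.877). For 2 or more sites against cooccupied locations (1.00), the direction turned with the exact string (0.809), a matrix p of 0.0001 (0.791) and GC classes (0.783), and pair classes gave 1.28. Against TAL1 nearby (1.13), the call was lost with the exact string (1.01), a matrix p of 0.0001 (1.07), TAL1 excluded within 250 bp (1.10), over 2 kb from start sites (1.14), no limit to start sites (1.01), cooccupancy under 20 bp (1.09) and 1 location per cluster (1.10), and the ratio turned to 0.994 in GC classes. The excess in introns (1.16) was lost over 2 kb from start sites (1.12) and with no limit to them (1.08). Tandem repeats against TAL1 nearby (2.86) passed with TAL1 excluded within 250 bp (9.40) and cooccupancy under 20 bp (4.14).

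In the panel, 1 motif was higher than at cooccupied locations with no limit to start sites, with 1 location per cluster and in GC classes, where KLF turned to 1.29, and 3 were lower than with TAL1 nearby in GC classes. In those classes 54 6-mers were higher and 76 lower. Moving windows by 2 kb gave a site in 14.6%. The cause of these changes was not tested.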

Other observations

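At Zfp217 the 8 closest locations without TAL1 had 3, 2, 1, 2, 2, 2, 1 and 3 GATA1 peak pairs in order along the chromosome, and 6 of them had a GATA site. The first 2 were in introns and the others between genes, and the closest TAL1 call was 770 to 21078 bp away. At Klf13, the location without TAL1 that had the most pairs, 5, lay 74332 bp from the start site and 1128 bp from a TAL1 call, on an AGATAA site, while 3 of the 7 locations had no site. Syne1 had 2 neighboring intron locations, at 4823401 and 4823906 on chromosome 10, that each had ATC before AGATAA and were 25889 and 26394 bp from the closest TAL1 call.

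At Bcl2l1 the 3 locations without TAL1, all in introns, had 1, 2 and 2 pairs and were 1641 to 3649 bp from a TAL1 call, and the gene had 5 cooccupied locations and 2 with TAL1 nearby. Of the 2 locations at Ms4a2, that 597 bp from a TAL1 call had 5 pairs and that 3773 bp from one had 1. At Cpa3 and Hdc, which mast cells also express, the locations without TAL1 had 1 pair each.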
